A study of Mus musculus with 3 samples.

Results

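The 9 genes described here make, cut, bind or sense hyaluronan. They were taken by symbol from the 31053 genes of the count files. Has1, Has2 and Has3 are the synthases, Hyal1 and Hyal2 are hyaluronidases, Cd44 and Lyve1 are cell surface receptors, and Tnfaip6 and Vcan encode secreted proteins that bind the polymer. They were followed in single cells of subcutaneous masses taken from CD-1 female mice on day 5. Per the labels the mice were 6 to 8 weeks old. Matrigel-only mice carried Matrigel, a basement membrane gel, without rhBMP2 and were given nothing by mouth. Vehicle mice carried Matrigel with rhBMP2, a recombinant bone morphogenetic protein under which cartilage and then bone form outside the skeleton, and were given corn oil with DMSO. Palo mice carried the same rhBMP2 mixture and were given daily palovarotene, an agonist of the retinoic acid receptor gamma, at 4 mg/kg. Masses were minced and dissociated with dispase, and the cells of each condition went into 1 droplet library. BMP2 and the oral vehicle differed together between Matrigel-only and Vehicle, and their parts cannot be told apart. Since each condition gave a single library, nothing separates a treatment from its library, no test was run, and every interval below covers counting error only.

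Hyaluronan is a long, unsulfated sugar chain that the synthases extrude directly through the plasma membrane from UDP-sugars. It fills the loose matrix of mesenchyme, swells with water, and is organised by binding proteins such as versican, aggrecan and the product of Tnfaip6, which moves protein chains onto it. CD44 anchors it to many cell types and takes it up, while LYVE1 is known from lymphatic endothelium and from a set of tissue macrophages. In cartilage, hyaluronan made largely by Has2 is the backbone on which aggrecan is held.

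Has1 and Cd44 were both lower in the stromal cells of Vehicle than in those of the other libraries, so the bases before their RefSeq start sites are shown, 5′ to 3′ on the gene's strand (build GRCm38.p6, the mm10 assembly of the counts). The Has1 stretch is chr17:17855206-17855438 (minus strand) and the Cd44 stretch is chr2:102901666-102901915 (minus strand), and no annotated gene lies over either. The Has1 stretch stops where the GENCODE gene begins, shortly before the RefSeq start. Capitals mark the motifs found, a nuclear receptor half-site (AGGTCA, here on the other strand) in Has1 and a hypoxia response core (ACGTG) in Cd44.
Has1: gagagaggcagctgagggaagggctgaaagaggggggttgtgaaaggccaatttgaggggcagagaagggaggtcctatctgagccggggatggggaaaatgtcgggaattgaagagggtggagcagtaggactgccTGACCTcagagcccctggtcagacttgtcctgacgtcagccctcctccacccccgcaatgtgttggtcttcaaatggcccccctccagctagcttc
Cd44: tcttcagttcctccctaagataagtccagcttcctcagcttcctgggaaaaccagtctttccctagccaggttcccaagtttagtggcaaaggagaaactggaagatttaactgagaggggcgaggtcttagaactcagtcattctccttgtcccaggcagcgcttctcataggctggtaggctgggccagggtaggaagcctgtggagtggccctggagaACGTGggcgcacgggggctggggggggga
The half-site began 113 bases before the Has1 start, and the core began 29 bases before the Cd44 start. Of 32851 promoter windows of the 250 bases before a start, 14.0% held AGGTCA and 16.6% held ACGTG on either strand, so both motifs are common. Neither GGCGCC, a Smad element, nor TATAAA was found before the start of the 6 of 9 members that had an entry in the RefSeq table, where GGCGCC was in 9.59% and TATAAA in 12.4% of all windows. The only other match among those 6 was a half-site 65 bases before the Tnfaip6 start. These are matches of letters in a fixed window, and nothing was measured here of binding to them.

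In GENCODE vM21 on mm10, Has1 lies on chromosome 17 (17843323 to 17855205), Has2 on chromosome 15 (56665627 to 56694539), Has3 on chromosome 8 (106870242 to 106884566), Cd44 on chromosome 2 (102811141 to 102901665), Lyve1 on chromosome 7 (110850607 to 110863239), Tnfaip6 on chromosome 2 (52038009 to 52056686) and Vcan on chromosome 13 (89655312 to 89742509). Hyal1 (107576927 to 107581710) and Hyal2 (107567945 to 107572779) are neighbours on chromosome 9. Hyal1 overlaps Naa80 and Hyal3 on the same strand, so its counts are uncertain.

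The count files held UMIs, the tagged molecules of each barcode. Cells with 200 to 6000 genes and at most 5% mitochondrial UMIs were kept, leaving 8728, 5478 and 7297 in the Matrigel-only, Vehicle and Palo libraries, with 40180209 to 44682600 UMIs per library. Of the barcodes kept, 8 to 17 were shared by any 2 libraries. Stromal cells, in which Col1a1, Col1a2, Col3a1, Dcn and Lum made up at least 1% of UMIs, came to 2085, 1373 and 1184 in Matrigel-only, Vehicle and Palo. Macrophages, the other cells with a Csf1r or C1qa UMI, numbered 5812, 3253 and 5661. Other leukocytes, the further cells with a Ptprc UMI, numbered 557, 583 and 329, and 274, 269 and 123 cells fell in no class. All 8 stromal markers were found in at least 10% of stromal cells in every library, and all 8 macrophage markers in at least 10% of macrophages. The classes were not clean of each other. In Matrigel-only, Vehicle and Palo, 5, 4 and 5 of the 8 macrophage markers also passed 10% of stromal cells. In other leukocytes 5, 3 and 5 passed, and the 8 summed to 8434, 3263 and 7584 CPM there. Stromal cells of Vehicle were the deepest, with a median of 17114 UMIs against 9082 in Matrigel-only and 12955 in Palo.

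A level is given in CPM, the UMIs of a gene summed over the cells of a class per 1000000 UMIs of those cells, with an exact Poisson 95% interval. Levels were compared between cells and libraries for 1 gene at a time, never between genes. Because a deeper cell shows more genes, shares of cells with at least 1 UMI were taken at equal depth (thinned cells), with 3100 UMIs a cell for stromal cells, 1400 for macrophages and 700 for other leukocytes, with an exact Clopper-Pearson interval. Cells under that number, 54 to 207 stromal cells and 137 to 567 macrophages per library, were left out of thinned shares.

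The genes fell into 3 sets by the cells that held their UMIs. Has1, Has2 and Tnfaip6 were almost wholly stromal, with 96.9% to 99.3% of their UMIs in stromal cells in every library, and Vcan was close to this with 93.8% to 96.1%. Lyve1 was a macrophage gene, with 96.2% to 98.9% of its UMIs in macrophages. Cd44, Hyal1 and Hyal2 were shared between classes. Cd44 had 66.6% of its UMIs in stromal cells in Matrigel-only and 68.7% in Palo but 41.7% in Vehicle, where macrophages held 50.0%. Has3 was hardly seen, with 6, 3 and 4 UMIs in all cells of Matrigel-only, Vehicle and Palo.

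**Figure D1:**
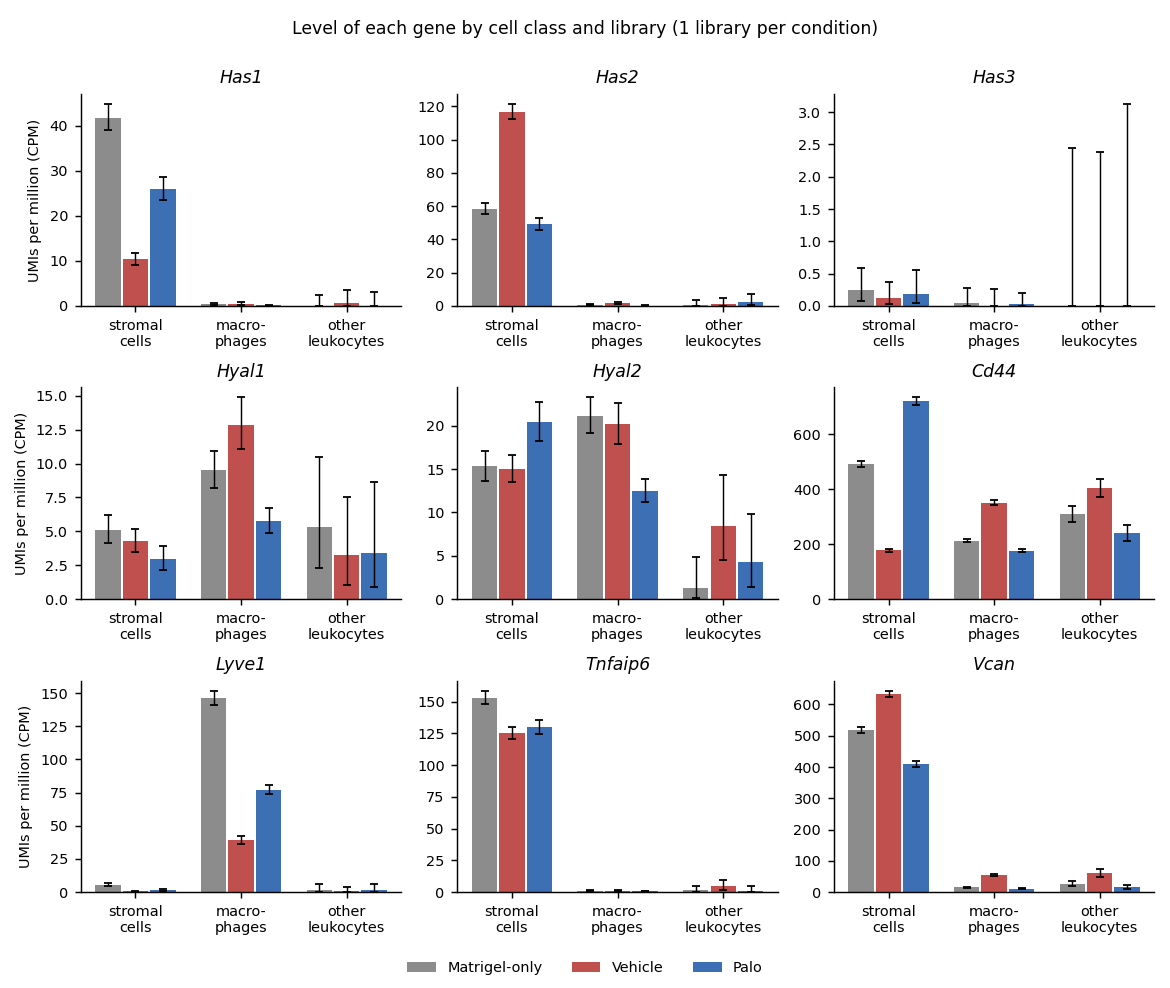
Level of each of the 9 genes in CPM (bars, each panel with its own axis from 0) in stromal cells, macrophages and other leukocytes of the Matrigel-only, Vehicle and Palo libraries, with exact Poisson 95% intervals. Has1, Has2 and Tnfaip6 stood in stromal cells and Lyve1 in macrophages. Between libraries within a class, Vehicle had the lowest Cd44 in stromal cells at 178 CPM but the highest in macrophages at 351 CPM.

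A gene counted as measured in a class when its mean over the 3 libraries was at least 5 CPM, which 6 of the 9 members passed in stromal cells (Has1, Has2, Hyal2, Cd44, Tnfaip6, Vcan), 5 in macrophages (Hyal1, Hyal2, Cd44, Lyve1, Vcan) and 2 in other leukocytes (Cd44, Vcan). The members that did not pass are given below by their UMIs or CPM. Ratios between libraries are on the log2 scale with a conditional binomial 95% interval, and 2-fold was the threshold of size.

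In stromal cells of Vehicle against Matrigel-only, 2 of 6 members were at least 2-fold lower, Has1 and Cd44, where 9.97% of all 10311 measured genes were that much lower. None was 2-fold higher, against 4.55% of all genes. Has2 reached 1.99-fold and passed 2-fold higher in 5 of 14 alternatives, TMM scaling among them (1.06). In Palo against Vehicle, 2 of 6 were at least 2-fold higher, the same Has1 and Cd44, where 7.45% of all genes were, and 1, Has2, was at least 2-fold lower, where 4.6% were. The comparisons share the Vehicle library, so the second is not independent of the first. In Palo against Matrigel-only 0 of 6 members were 2-fold higher and 0 lower, against 0.853% and 2.24% of all genes.

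In macrophages of Vehicle against Matrigel-only, Vcan was the 1 member of 5 at least 2-fold higher (3.83% of 9551 genes) and Lyve1 the 1 at least 2-fold lower (2.65% of genes). In Palo against Vehicle 3 of 5 were at least 2-fold lower, Hyal1, Cd44 and Vcan, where 4.7% of genes were, and 0 were higher, where 1.83% were. Hyal1 (-1.16, interval -1.48 to -0.85) stayed past 2-fold in 9 of 12 alternatives, Cd44 (-1.001) in 2 of 12 and Vcan in all 12. TMM scaling moved all Palo to Vehicle ratios in macrophages by 0.20, to -0.96 for Hyal1 and -0.80 for Cd44, and took Lyve1 past 2-fold higher, to 1.18 from 0.98. In Palo against Matrigel-only 0 of 5 were past 2-fold in either direction, with 0.984% of genes higher and 1.7% lower. In other leukocytes Vcan was the only 1 of 2 members past 2-fold, higher in Vehicle than in Matrigel-only (11% of 9903 genes higher, 5.03% lower) and lower in Palo than in Vehicle (13% of genes lower, 4.34% higher). Neither member was past 2-fold there in Palo against Matrigel-only (3.36% of genes higher, 4.49% lower).

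At 1.5-fold in either direction, the stromal counts were 3 of 6 members in Vehicle against Matrigel-only (28.3% of genes), 4 in Palo against Vehicle (23.4%) and 1 in Palo against Matrigel-only (9.07%). In macrophages they were 3 of 5 (16.2%), 5 (18.8%) and 3 (11%) in the same order of comparisons. In other leukocytes they were 1 of 2 (34.2%), 2 (37.2%) and 1 (21.1%).

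**Figure D2:**
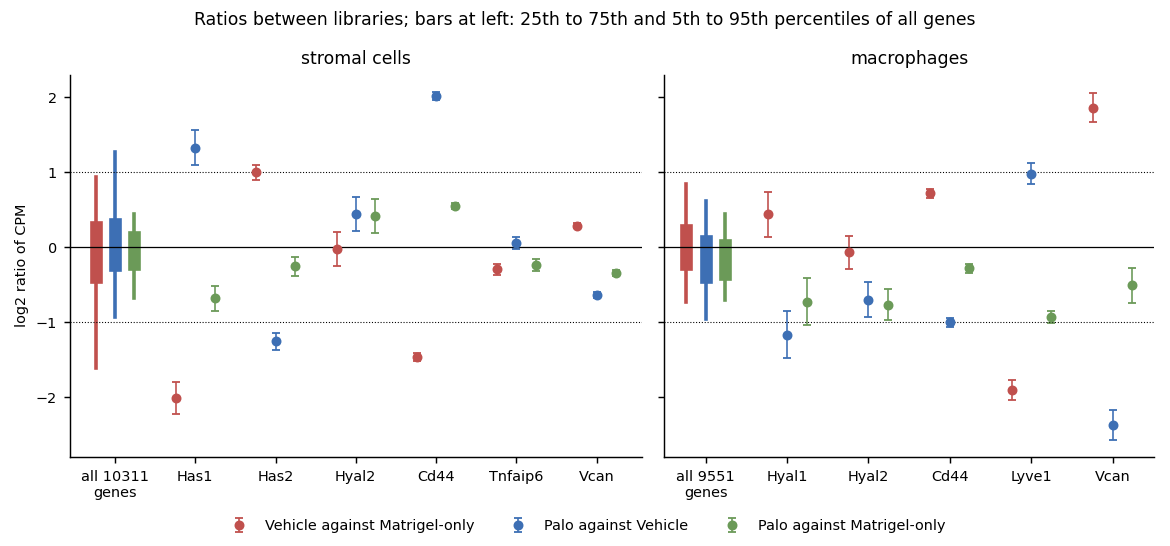
log2 ratio of CPM (y axis) for the members measured in stromal cells and in macrophages, with 95% binomial intervals, beside bars for all genes of the class spanning the 25th to 75th and the 5th to 95th percentiles. Dotted lines mark 2-fold. In stromal cells Cd44 and Has1 lay below the other members in Vehicle against Matrigel-only (-1.47 for Cd44, 4.01-fold lower for Has1) and above them in Palo against Vehicle (2.02 for Cd44, 1.32 for Has1), while in macrophages Vcan and Lyve1 lay farthest from 0 in Vehicle against Matrigel-only.

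Of the synthases, Has2, the main source of hyaluronan in embryonic mesenchyme and in cartilage, was highest in the stromal cells of Vehicle. Its level was 58.6 CPM (55.3 to 62.0) in Matrigel-only, 117 CPM (112 to 121) in Vehicle and 49.0 CPM (45.6 to 52.6) in Palo. Vehicle stood apart from both other libraries, which differed from each other by only 0.26 on the log2 scale (-0.26, interval -0.39 to -0.12, Palo against Matrigel-only). The log2 ratio of Palo to Vehicle was -1.25 (-1.37 to -1.14). In thinned cells Has2 was seen in 14.4%, 27.1% and 12.5% of stromal cells in Matrigel-only, Vehicle and Palo. At a fixed depth this share also rises with the level per cell, so it does not count the cells that express Has2. Without thinning the shares were 30.6%, 62.9% and 34.8%. Macrophages held Has2 at 1.01%, 1.43% and 0.372% of the stromal level in Matrigel-only, Vehicle and Palo, within or just under the 0.375% to 1.91% at which the stromal genes Col1a1, Col3a1, Dcn and Lum were found there. Those genes help define the stromal class, so its cutoff by itself holds them low in macrophages.

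Has1, the second synthase gene, ran the other way. Its stromal level was 41.8 CPM (39.1 to 44.8) in Matrigel-only, 10.4 CPM (9.17 to 11.8) in Vehicle and 26.1 CPM (23.6 to 28.7) in Palo. The 3 levels did not overlap within counting error, and Palo lay between the other libraries. Has1 was 4.01-fold lower in Vehicle than in Matrigel-only (log2 interval -2.22 to -1.80), and the log2 ratio of Palo to Vehicle was 1.32 (1.09 to 1.56). In thinned cells 10.4%, 2.53% and 6.48% of stromal cells had a Has1 UMI. The most Has1 UMIs in any 1 cell were 14, 19 and 10. Has3 had 5, 3 and 3 UMIs in stromal cells, too few for a ratio.

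The mixture of stromal cells differed between libraries. Has2 differed between kinds of stromal cell in every library, whereas for Has1 such a difference was clear of counting error only in Vehicle. Stromal cells were split into cartilage-matrix cells (at least 2 UMIs of Acan and Col2a1 together), the other cells with a UMI of Pi16, a gene of fibroblast progenitors, and the remaining cells. Cartilage-matrix cells numbered 0, 729 and 3 in Matrigel-only, Vehicle and Palo, Pi16 cells 1153, 144 and 368, and remaining cells 932, 500 and 813. Pi16 cells were therefore 55.3%, 10.5% and 31.1% of stromal cells in Matrigel-only, Vehicle and Palo. The split used UMIs without thinning, and the stromal cells of Vehicle were the deepest. In Vehicle, 14.8% of macrophages and 11.8% of other leukocytes had at least 1 UMI of 6 cartilage markers, and 1.51% and 0.858% had at least 2. In Matrigel-only and Palo the share with at least 1 was at most 0.912% in these classes. The part of depth and of such stray RNA in the cartilage-matrix set was not tested.

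Within the Pi16 cells Has1 was higher in Vehicle than in Matrigel-only, at 40.7, 71.0 and 21.7 CPM in Matrigel-only, Vehicle and Palo. The log2 ratio there was 0.80 (0.52 to 1.08) in Vehicle against Matrigel-only. In the remaining cells it was at 42.9, 9.26 and 27.4 CPM, a log2 ratio of -2.21 (-2.58 to -1.86). In the cartilage-matrix cells of Vehicle it was at 1.61 CPM, the lowest of all. The log2 ratio of Has1 in Pi16 to remaining cells was 2.94 (2.53 to 3.35) in Vehicle. It was -0.08 (-0.28 to 0.12) in Matrigel-only and -0.34 (-0.69 to 0.006) in Palo. With the Pi16 and remaining cells weighted by their UMIs as in Matrigel-only, and cartilage-matrix cells left out, the Has1 ratio of Vehicle to Matrigel-only became -0.08, and that of Palo to Vehicle turned to -0.69. That weighting was chosen after the values were seen, and it rests on the 144 Pi16 cells of Vehicle. Those cells were unlike the Pi16 cells of the other libraries in genes other than the members, with Prg4, a lubricin gene of joint surfaces, at 26.2, 373 and 43.1 CPM, Dpp4 at 366, 128 and 277 CPM and Cd34 at 1386, 959 and 1114 CPM in Matrigel-only, Vehicle and Palo. In Vehicle, 18% of stromal cells with a Pi16 UMI also had a Has1 UMI in thinned cells, against 1.58% of those without, while in Matrigel-only the shares were 11.7% and 10.4%.

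Has2 was higher in Vehicle in both subsets present in all libraries. It stood at 49.6, 82.7 and 40.7 CPM in the Pi16 cells of Matrigel-only, Vehicle and Palo and at 67.2, 93.8 and 52.1 CPM in the remaining cells. The cartilage-matrix cells of Vehicle had 137 CPM (131 to 144), above both other subsets. In thinned Vehicle cells Has2 was seen in 34.2% of stromal cells with an Acan UMI and in 21.0% of those without. Weighted as in Matrigel-only, the log2 ratio was 0.59 in Vehicle against Matrigel-only and -0.93 in Palo against Vehicle, so the direction stayed and the size was smaller.

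**Figure D3:**
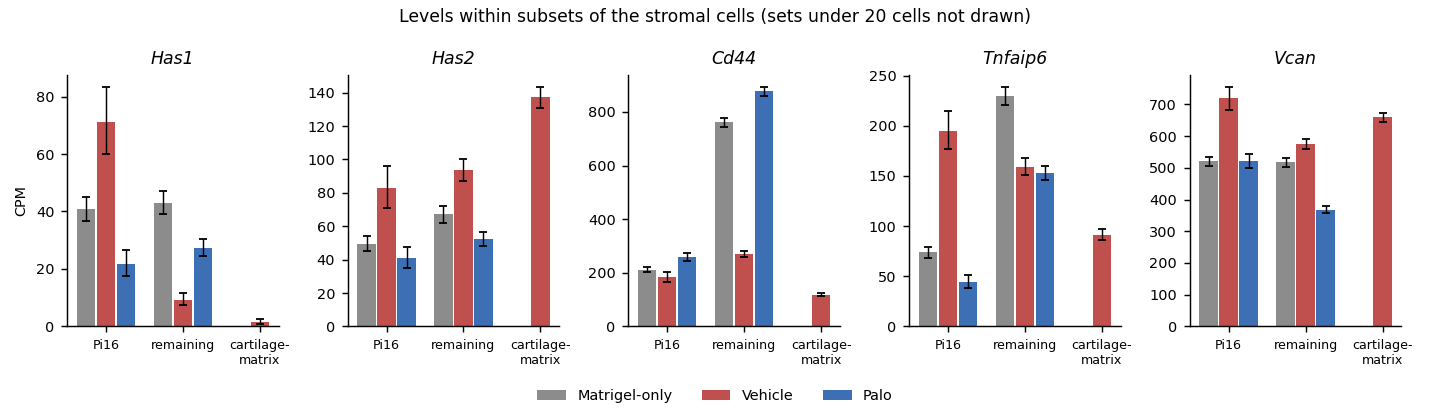
Level in CPM (bars from 0, each panel with its own axis) of Has1, Has2, Cd44, Tnfaip6 and Vcan in the Pi16 cells, remaining cells and cartilage-matrix cells of the stromal class, with exact Poisson 95% intervals and sets under 20 cells not drawn. In Vehicle, Has1 was at 71.0 CPM in Pi16 cells and 1.61 CPM in cartilage-matrix cells and Has2 was highest in cartilage-matrix cells at 137 CPM, and Cd44 was lower in Pi16 than in remaining cells of every library.

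Of the hyaluronidases, Hyal2 stayed within 2-fold in stromal cells and macrophages. Hyal1 in macrophages was past 2-fold lower in Palo against Vehicle (-1.16, interval -1.48 to -0.85). Hyal2, a membrane-anchored enzyme that makes the first cuts in the long chain, was at 15.3, 15.0 and 20.4 CPM in the stromal cells of Matrigel-only, Vehicle and Palo and at 21.2, 20.2 and 12.5 CPM in macrophages. In stromal cells the Palo level lay above both others, and in macrophages it lay below both, with log2 ratios of 0.44 (0.22 to 0.66) and -0.70 (-0.93 to -0.47) against Vehicle. Matrigel-only and Vehicle were not told apart in either class, with intervals of -0.25 to 0.20 and -0.29 to 0.15. Hyal1, a lysosomal enzyme, was at 9.53 CPM (8.23 to 10.97), 12.9 CPM (11.1 to 14.9) and 5.76 CPM (4.89 to 6.73) in macrophages, lowest in Palo. It was at 5.09, 4.28 and 2.97 CPM in stromal cells, on 47 to 102 UMIs per library. In other leukocytes Hyal1 had 4 to 8 UMIs and Hyal2 2 to 13 UMIs per library.

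Cd44, the main hyaluronan receptor of many cell types, was seen in every class, and its order between libraries was opposite in stromal cells and macrophages. In stromal cells it stood at 492 CPM (482 to 501) in Matrigel-only, 178 CPM (173 to 184) in Vehicle and 720.5 CPM (707 to 734) in Palo. In macrophages it stood at 213 CPM (207 to 220), 351 CPM (342 to 361) and 175 CPM (170.5 to 180.4). Vehicle was thus lowest in stromal cells and highest in macrophages, and no 2 libraries overlapped within counting error in either class. The log2 ratio of Vehicle to Matrigel-only was -1.47 in stromal cells and 0.72 in macrophages, and that of Palo to Vehicle was 2.02 and -1.001. The last value lies just past 2-fold and ranged from -1.13 to -0.58 over the alternatives, of which 2 of 12 kept it past 2-fold. The value of -0.58 came with stromal cells set at 5% of UMIs. The log2 ratio of Palo to Matrigel-only was 0.55 in stromal cells and -0.28 in macrophages. In macrophages the median of all genes in that comparison was -0.17, 34.3% of genes were as low or lower, and TMM scaling took Cd44 to -0.10. The place of Palo below Matrigel-only there was thus near that of all genes. Granulocyte-marker RNA in macrophages was also highest in Vehicle, at 39.2, 108.9 and 34.5 CPM in Matrigel-only, Vehicle and Palo. Its part in the macrophage Cd44 difference was not tested.

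The share of stromal cells with a Cd44 UMI depended on depth. After thinning it was 43.9%, 33.7% and 49.6% in Matrigel-only, Vehicle and Palo, but without thinning it was 61.3%, 73.3% and 74.6%, so Vehicle was lowest only when depth was held equal. The libraries also differed in the number of cells with very high Cd44. Cells with at least 1000 CPM and 3 UMIs of Cd44 were 8.82%, 1.31% and 16.6% of stromal cells in the Matrigel-only, Vehicle and Palo libraries, and held 59.3%, 15.3% and 75.9% of the stromal Cd44 UMIs. In the other stromal cells Cd44 stood at 232, 153 and 222 CPM. The narrower span follows in part from the cut, which took out cells by their own Cd44 level and was made without thinning.

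**Figure D4:**
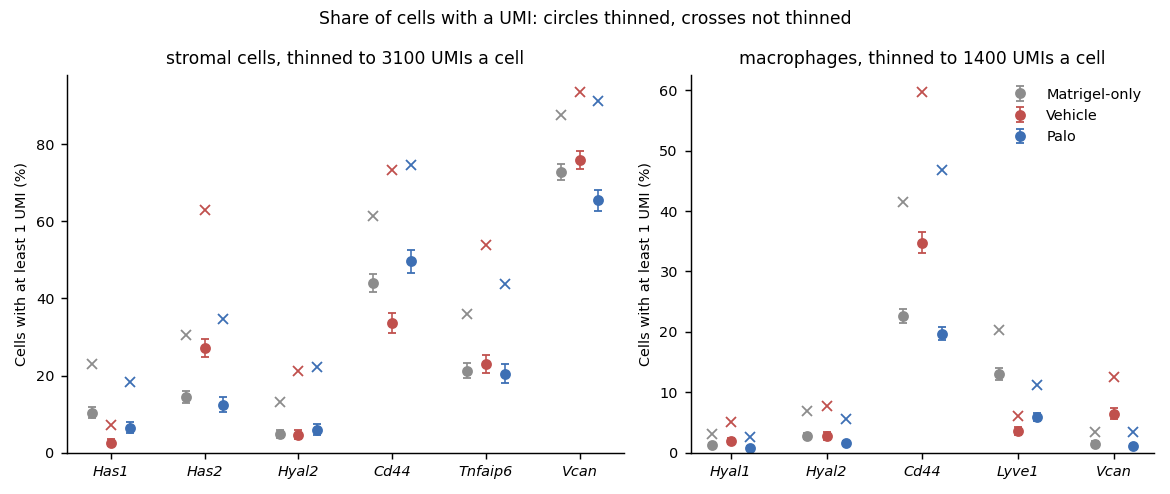
Share of cells with at least 1 UMI (y axis, from 0) for the members measured in stromal cells and in macrophages, after thinning to 3100 and 1400 UMIs a cell (circles, with exact Clopper-Pearson 95% intervals) and without thinning (crosses). Cd44 in stromal cells of Vehicle was at 33.7% thinned and 73.3% not thinned, and Has2 was highest in Vehicle both ways.

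By subset, Cd44 was lower in the Pi16 cells than in the remaining cells of each library. Pi16 cells had 212, 184 and 258 CPM in Matrigel-only, Vehicle and Palo, and remaining cells had 762, 269 and 878 CPM. The log2 ratio of Pi16 to remaining cells was -1.85, -0.55 and -1.77 in Matrigel-only, Vehicle and Palo. Cartilage-matrix cells of Vehicle had 118 CPM. Weighted as in Matrigel-only, the Cd44 ratio was -1.11 in Vehicle against Matrigel-only and 1.34 in Palo against Vehicle, smaller but in the same direction. With all stromal cells with an Acan or Col2a1 UMI left out, the ratios were -0.998, just under 2-fold, and 1.54. In thinned Vehicle cells Cd44 was seen in 24.8% of stromal cells with an Acan UMI and in 44.3% of those without.

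Other signals moved with Has1 and Cd44 in stromal cells. A dissociation response list held 12 genes, such as Fos, Egr1 and Hspa1a, which tissue digestion can induce. They summed to 1558 CPM in Matrigel-only, 734 CPM in Vehicle and 1632 CPM in Palo. In Vehicle against Matrigel-only 10 of 12 were at least 2-fold lower, where 9.97% of all genes were. Their median log2 ratio was -1.64 beside -0.04 for all genes. The 8 macrophage markers, none at 0, summed to 762, 252 and 642 CPM in the same cells. The part of the dissociation response in the Has1 and Cd44 differences was not tested. With stromal cells that had a Csf1r, C1qa or Ptprc UMI left out, the ratio of Vehicle to Matrigel-only was -1.98 for Has1 and -1.52 for Cd44, and that of Palo to Vehicle was 1.19 for Has1 and 1.95 for Cd44. The 9 hypoxia genes moved the other way, with 1176, 1996 and 664 CPM, the order seen for Has2. Of the 9, 3 were at least 2-fold higher in Vehicle than in Matrigel-only, where 4.55% of all genes were. In Palo against Vehicle 7 of 9 were at least 2-fold lower, where 4.6% of all genes were. The part of the hypoxia genes in the Has2 difference was not tested.

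Among the other leukocytes Cd44 was at 308 CPM (281 to 338), 403 CPM (372 to 436) and 239 CPM (212 to 269) in Matrigel-only, Vehicle and Palo, the same order as in macrophages, but its thinned shares of 19.9%, 21.2% and 16.4% had overlapping intervals. The log2 ratio of Vehicle to Matrigel-only was 0.39, and it was -0.03 with stromal cells set at 5% of UMIs. The makeup of this class differed between libraries. Cells with at least 2 UMIs of granulocyte markers, a gate chosen after seeing the data, numbered 1, 57 and 7 in Matrigel-only, Vehicle and Palo, and the 57 of Vehicle had 1639 CPM of Cd44 (1323 to 2008). T/NK-marker cells numbered 58, 226 and 46 and had 235, 189.6 and 242 CPM, with overlapping intervals. The cells that no single T/NK, granulocyte, basophil, B cell or type 1 dendritic list claimed with at least 2 UMIs numbered 357, 191 and 185. They had 361 CPM (322 to 404), 613 CPM (545 to 686) and 265 CPM (226 to 309), and in Vehicle they held 302 of the Cd44 UMIs of the class. Macrophage markers were not used as a gate, and 76.3%, 40.3% and 69.0% of all other leukocytes had at least 2 UMIs of them. The part of the makeup in the class level was not tested.

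Lyve1, a hyaluronan receptor related to CD44, was highest in the macrophages of Matrigel-only. It stood at 146 CPM (141 to 152) in Matrigel-only, 39.1 CPM (36.0 to 42.5) in Vehicle and 77.2 CPM (74.0 to 80.6) in Palo, with no overlap. The log2 ratio was -1.90 (-2.04 to -1.77) in Vehicle against Matrigel-only, 0.98 (0.85 to 1.12) in Palo against Vehicle and -0.92 (-1.005 to -0.84) in Palo against Matrigel-only. Of all 9551 genes in macrophages, 0.335% had a ratio as low as that of Lyve1 in the first of these. In thinned cells 13.0%, 3.58% and 5.94% of macrophages had a Lyve1 UMI. The shares had the order of the levels. The summed macrophage markers in macrophages were 20081, 15991 and 21424 CPM in Matrigel-only, Vehicle and Palo, also lowest in Vehicle but over a much narrower span.

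Lyve1 was seen more often in cells with Stab1, a scavenger receptor gene. In thinned macrophages of Matrigel-only, Vehicle and Palo, 18.7%, 6.77% and 13.5% of cells with a Stab1 UMI had Lyve1. Of cells without, 6.88%, 1.72% and 2.19% had it. Cells with a UMI of Ccr2, a receptor of recruited monocytes, had Lyve1 less often than cells without, 7.79%, 2.04% and 4.14% against 17.7%, 4.52% and 9.01%. Vehicle was lowest and Matrigel-only highest in each of these 4 sets. Stab1 itself was at 863, 372 and 446 CPM in macrophages.

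Lyve1 in stromal cells was scarce. Only 41, 7 and 11 stromal cells had a Lyve1 UMI, of which 37, 5 and 9 also had a UMI of Csf1r, C1qa or Ptprc. Of the cells with Lyve1, 0 had a UMI of Prox1, Flt4 or Ccl21a, markers of lymphatic endothelium, and 2, 1 and 0 had an endothelial marker. Pdpn, the other gene of the lymphatic list, was not counted there. With Pdpn the list was seen in 61.6%, 35.0% and 67.1% of all stromal cells. The cells with a Csf1r, C1qa or Ptprc UMI were thus 90.2%, 71.4% and 81.8% of stromal cells with Lyve1, beside 25.3%, 29.7% and 30.8% of all stromal cells, without thinning. Its stromal level was 5.54, 0.721 and 1.33 CPM.

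Tnfaip6, whose product TSG-6 crosslinks hyaluronan, was at 153 CPM (148 to 159), 125 CPM (120.5 to 129.6) and 129.6 CPM (124 to 135) in the stromal cells of Matrigel-only, Vehicle and Palo. Vehicle and Palo overlapped, with a log2 ratio of 0.05 (-0.03 to 0.13), and the thinned shares of 21.3%, 22.9% and 20.4% overlapped in all 3 libraries. The subsets differed from the class level. Pi16 cells had 73.8, 195 and 44.6 CPM, a log2 ratio of 1.40 (1.22 to 1.58) in Vehicle against Matrigel-only and -2.13 (-2.39 to -1.87) in Palo against Vehicle. Remaining cells had 229.6, 159 and 153 CPM, a ratio of -0.53 (-0.63 to -0.43) in the first comparison. In the second comparison it was -0.06 (-0.16 to 0.04). Cartilage-matrix cells of Vehicle, 53.1% of its stromal cells, had 91.6 CPM. With these left out and the mixture held at that of Matrigel-only, the class ratio of Vehicle to Matrigel-only turned from -0.29 to 0.21, and that of Palo to Vehicle was -0.83.

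Cells with Tnfaip6 had Cd44 more often in every library. In thinned stromal cells Cd44 was seen in 70.5% of cells with a Tnfaip6 UMI and 38.7% of those without in Matrigel-only, in 45.4% and 31.3% in Vehicle, and in 72.9% and 44.0% in Palo. Has2 did not follow Cd44, at 14.3% and 13.0% in Matrigel-only, 27.2% and 27.6% in Vehicle and 13.9% and 11.2% in Palo. In Vehicle, Has2 was seen in 20% of cells with Tnfaip6 and 29.9% of those without.

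Vcan, the large chondroitin sulfate proteoglycan versican, was seen in most stromal cells, at 519 CPM (509 to 529) in Matrigel-only, 634 CPM (624 to 644) in Vehicle and 409 CPM (399 to 419) in Palo. The order was clear of counting error but the ratios were under 2-fold, 0.29 in Vehicle against Matrigel-only and -0.63 in Palo against Vehicle. Thinned shares were 72.9%, 76.0% and 65.4%. Pi16 cells had 521, 719 and 522 CPM and remaining cells had 517, 575 and 368 CPM, with 659 CPM in the cartilage-matrix cells of Vehicle. Vehicle was highest in both subsets. The 10% of stromal cells with the most Vcan held 29.0% to 31.7% of its UMIs, so it was spread over many cells.

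In macrophages Vcan was lower than in stromal cells but differed more between libraries, at 15.3 CPM (13.7 to 17.1), 55.5 CPM (51.7 to 59.5) and 10.8 CPM (9.59 to 12.1). The log2 ratio was 1.86 (1.67 to 2.05) in Vehicle against Matrigel-only and -2.36 (-2.56 to -2.17) in Palo against Vehicle, and thinned shares were 1.51%, 6.42% and 1.14%. The macrophage level was 2.95%, 8.76% and 2.64% of the stromal level in Matrigel-only, Vehicle and Palo. The stromal genes Col1a1, Col3a1, Dcn and Lum were there at 0.578% to 1.25%, 0.941% to 1.91% and 0.375% to 0.604% of theirs, and Vcan stood above all 4 in each library. These 4 genes help define the stromal class, so its cutoff by itself holds them low in macrophages. Vcan is not one of the genes of that cutoff, but a cell that the cutoff moves to the stromal class takes its Vcan UMIs along. The source of Vcan RNA in macrophages was not tested. Macrophages of Vehicle also had more granulocyte-marker RNA, 108.9 CPM over 6 markers against 39.2 CPM in Matrigel-only and 34.5 CPM in Palo, and its part in the Vcan difference was not tested. In macrophages the hypoxia genes also summed highest in Vehicle, at 697, 1087 and 427 CPM, the order of Vcan and Cd44 there, while the dissociation response genes summed to 3509, 2715 and 3804 CPM, and the part of either was not tested. In Vehicle cells thinned to 700 UMIs, Vcan was seen in 3.86% of macrophages, 0.293% of T/NK-marker, 0.465% of type 1 dendritic-marker, 1.24% of basophil-marker, 1.35% of B cell-marker and 5.86% of granulocyte-marker cells. The gated sets had 28 to 226 cells with 1 to 9 Vcan UMIs each, so their order is uncertain. Of the 57 granulocyte-marker cells, with a median of 696 UMIs, only 27 reached 700 UMIs, and the interval of their share was 0.475% to 22.1%. T cells and B cells should lack Vcan, and the median depth was 2033 UMIs in T/NK-marker cells, 3720.5 in B cell-marker cells and 3646 in macrophages. In thinned Vehicle macrophages Vcan was seen in 9.22% of cells with a Cd44 UMI and 4.14% of those without, in 7.63% of cells with a Ccr2 UMI and 4.25% without, and in 3.49% of cells with a Stab1 UMI and 7.03% without.

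In other leukocytes Vcan was at 27.2 CPM (19.6 to 37.0), 60.7 CPM (49.0 to 74.3) and 15.2 CPM (9.02 to 24.1), on 41, 94 and 18 UMIs. Most of these UMIs lay in the cells that no single T/NK, granulocyte, basophil, B cell or type 1 dendritic list claimed with at least 2 UMIs. These cells had 43.1, 158 and 26.0 CPM, and macrophage markers were not among the gates. When every cell was weighted the same the ratio of Vehicle to Matrigel-only was 0.14 in place of 1.16.

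The other genes of the hyaluronan system were taken from lists chosen with the members. Of 7 genes for the UDP-sugar precursors, 2 were at least 2-fold lower in stromal cells of Vehicle than of Matrigel-only, Gfpt2 (-1.64) and Uap1 (-1.57). None was higher, and the list median was -0.61 beside -0.04 for all genes. Of all genes, 9.97% were that much lower and 4.55% higher. In Palo against Vehicle no precursor gene was past 2-fold, where 4.6% of all genes were lower and 7.45% higher. Of 5 measured genes that degrade the chain or its fragments, 1 was past 2-fold in these comparisons, beside the same shares of all genes. It was Tmem2, a cell surface hyaluronidase, at 33.6, 142 and 51.2 CPM in stromal cells of Matrigel-only, Vehicle and Palo. In macrophages Tmem2 was at 66.6 CPM in Matrigel-only and 22.7 CPM in Palo, with a log2 ratio of -2.14 in Palo against Vehicle.

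Of 14 other binders, 5 were measured in stromal cells. Acan, the cartilage proteoglycan aggrecan, had 1, 29948 and 13 UMIs, and the link protein Hapln1, which locks aggrecan to hyaluronan, had 0, 3051 and 1. Against the floor of 3 UMIs for a count of 0, Hapln1 was at least 9.76 higher on the log2 scale in Vehicle than in Matrigel-only. Itih5, a heavy chain of the inter-alpha-trypsin inhibitor family, went the other way with 421, 34.8 and 223 CPM. In all, 3 of the 5 binders were at least 2-fold higher in Vehicle than in Matrigel-only (Acan, Hapln1 and Hapln3) and 1 lower (Itih5). Of all genes 4.55% were higher and 9.97% lower there. In Palo against Vehicle 4 were lower (the same 3 and Ptx3) and 1 higher (Itih5). Of all genes 4.6% were lower and 7.45% higher in that comparison. Itih5 and Hapln3 were named after their values were seen. The order of Acan and Hapln1 is that of the cartilage-matrix cells, which the Acan count itself defines in part. Both genes passed the minimum of 5 CPM only through their Vehicle UMIs. That filter thus set their direction in both comparisons, and the counts of binders cannot be weighed against the shares of all genes.

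Of 5 measured genes on a list of other receptors, 2 were at least 2-fold lower in stromal cells of Vehicle than of Matrigel-only, and 0 higher. They were Stab1 (-1.87) and Tlr4 (-1.47), both also macrophage genes, and the list median was -0.48. Of 5 measured proteases that cleave versican, 3 were at least 2-fold lower in that comparison. They were Adamts5, Adamts15 and, named after its value was seen, Adamts1 (-1.22). Of all genes 9.97% were that much lower and 4.55% higher, with a median of -0.04. In Palo against Vehicle 2 proteases, Adamts5 and Adamts15, were at least 2-fold higher, where 7.45% of all genes were. The protease median there was 0.94 beside 0.02 for all genes. Adamts5 stood at 522, 74.9 and 452 CPM and Adamts15 at 150.4, 23.7 and 78.9 CPM in Matrigel-only, Vehicle and Palo. Both were lowest in Vehicle, where Vcan RNA was highest. Versican protein and its cleavage were not measured, and a link between these levels was not tested. The 5 measured genes of a retinoid response list had a median log2 ratio of -0.14 in stromal cells of Palo against Vehicle. Of them 1 was at least 2-fold lower, where 4.6% of all genes were, and 0 higher, where 7.45% were. It was Cyp26b1 (-1.29, named after its value was seen), which encodes a retinoic acid degrading enzyme. In Palo against Matrigel-only 1 of the 5 was at least 2-fold higher and 0 lower, where 0.853% and 2.24% of all genes were. The counts were also 1 higher and 0 lower in Vehicle against Matrigel-only, where 4.55% and 9.97% of all genes were.

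The genes most like each member were found by Pearson's r of log2(CPM + 1) over the 9 combinations of class and library, which share libraries and are given as a description. For Has1 these were Rnf165, Opcml and Qpct (r from 0.997 to 0.998), for Has2 Nsg1, Sgcd and Igdcc4 (0.991 to 0.998), and for Tnfaip6 Antxr1, Ephb2 and Lrrc17 (0.996 to 0.997). For Vcan they were Abhd14a, Tnc and Pdlim7 (0.992 to 0.996), for Lyve1 Folr2, Itm2b and Lamp1 (0.991 to 0.992), for Hyal2 E2f5, Anapc7 and Nbr1 (0.956 to 0.98), for Hyal1 Gnaq, Akap7 and Ccdc130 (0.908 to 0.914) and for Cd44 Ust, S100a10 and Sept11 (0.899 to 0.922). The highest r was lowest for Hyal1 and Cd44. A high r can come from the step between cell classes, so a like gene need not differ between libraries as the member does. Abhd14a, for instance, was at 4.94, 4.91 and 4.88 on the log2(CPM + 1) scale in stromal cells of Matrigel-only, Vehicle and Palo.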

How the data were processed

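Cells of day 5 masses were measured by 10x Genomics droplet RNA sequencing, with 1 library per condition. The authors deposited raw UMI counts per barcode and gene, without normalization, made with Cell Ranger 3.0.2 on mm10. Per the submitters' processing notes Seurat 3 was also used, and its clusters were not used here. Limits of 200 to 6000 genes and 5% mitochondrial UMIs were applied. Classes were exclusive, in the order stromal cells, macrophages, other leukocytes. The members and the lists were chosen with earlier results of these data known. No doublet caller was run, and an alternative without cells carrying markers of both kinds stands in its place. Counts were summed per class and library, and a count of 0 was set to a floor of 3 UMIs in ratios. UMIs are tagged molecules, but intervals cover counting error only at a confidence of 95%. Thinned shares are the expected value of a hypergeometric draw. Co-detection used 1 seeded draw per library, at 3100 UMIs in stromal cells and 1400 in macrophages. Besides the 9 members, genes named were at most the 2 with the largest ratio per list and comparison and the 3 most like each member, and exceptions are marked where they occur. Markers, granulocyte and T/NK gates and the Stab1, Ccr2, Pi16 and Acan splits also name genes, chosen from those lists or as background. Ratios and thinning were tested on simulated independent counts, which lack the uneven spread of UMIs over cells seen here. Python 3.11.15, numpy 2.4.6, scipy 1.17.1, pandas 2.3.3, matplotlib 3.10.9 and, for TMM factors only, edgeR 4.0.16 in R 4.3.3 were used. Gene positions are from GENCODE vM21 and promoters from RefSeq. In all, 18 alternatives were set with the lists, and 5 were added after the values were seen. No per-sample test was possible with 1 library per condition.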

Additional observations from a re-analysis of the deposited data

Results flagged for a closer look

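In 5 of 9 cases (3 members in 3 comparisons) a member's ratio had opposite signs in stromal cells and macrophages, with both counting intervals clear of 0, where 11.9% of the cases of all 8635 genes measured in both classes did. For Cd44 the stromal log2 ratio minus that in macrophages was -2.19 in Vehicle against Matrigel-only, 3.02 in Palo against Vehicle and 0.83 in Palo against Matrigel-only. For Hyal2 the same difference was 1.14 in Palo against Vehicle and 1.18 in Palo against Matrigel-only. In 3 of 18 cases the signs were opposite in the same way between the Pi16 cells and the remaining stromal cells, where 2.21% of the cases of all genes were. For Has1 the ratio in Pi16 cells minus that in the remaining cells was 3.02 in Vehicle against Matrigel-only and -3.27 in Palo against Vehicle, and for Tnfaip6 it was 1.93 in Vehicle against Matrigel-only. A gene with more UMIs has narrower intervals, and the shares of all genes were not matched for this. None of these differences was tested, since each condition had 1 library. The comparisons of 1 gene share libraries and are not independent of each other.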

How the results depend on the processing

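Of 39 ratios of members, 12 were at least 2-fold. Of these, 11 kept their sign under every alternative tried and 5 stayed at 2-fold or more under all of them. The exception in sign was Has1 in stromal cells, Palo against Vehicle, at -0.69 with the mixture held at that of Matrigel-only (chosen after seeing the data). Has2 in stromal cells, Vehicle against Matrigel-only, under 2-fold as reported, was past it in 5 of 14 alternatives (up to 1.07). The number of members past 2-fold in stromal cells became 1 in Vehicle against Matrigel-only (from 2) and 1 in Palo against Vehicle (from 3), both with cells having an Acan or Col2a1 UMI left out and with the mixture held. In macrophages, Palo against Vehicle, it was 1 with 5 CPM added (from 3), and Palo against Matrigel-only gave 1 (from 0) with every cell weighted the same or thinned. In other leukocytes, Vehicle against Matrigel-only gave 0 (from 1) under TMM, equal weights and thinning, and Palo against Matrigel-only gave 1 (from 0) with stromal cells at 2% or 5% of UMIs, at 2 Ptprc UMIs, with equal weights and thinned. At 1.5-fold the number moved to 1 in stromal cells for Palo against Matrigel-only, 5 and 3 in macrophages for Palo against Vehicle and against Matrigel-only, and 2 and 1 in other leukocytes. Members past 2-fold in Pi16 cells, Vehicle against Matrigel-only, were 2 (from 1) at 2 Pi16 UMIs and without cells of both marker kinds, alternatives also chosen after seeing the data. The number of members with the higher share of cells, without thinning, was 5 (from 3) in stromal cells for Vehicle against Matrigel-only and 5 (from 2) for Palo against Matrigel-only. It was 1 (from 0) in macrophages for Palo against Matrigel-only, also at 2 UMIs. In other leukocytes it was 1 (from 2), 1 (from 0) and 1 (from 0) in the 3 comparisons. No share of all genes was taken for the counts within Pi16 cells, for those of higher shares, or under alternatives other than 1.5-fold. Whether those counts are unusual thus cannot be told. The causes were not tested.

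No paired analysis was possible because each condition had 1 library, and for the same reason none was left out in turn. Has3 in all classes, and Has1, Has2 and Tnfaip6 outside stromal cells, had few UMIs, which limits what can be said of them there. Macrophages held 20363296, 14355610 and 27443108 UMIs of all genes in Matrigel-only, Vehicle and Palo. Stromal cells held 20049136, 23591212 and 15832240.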

Other observations

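Cells that fell in none of the classes, 274, 269 and 123 of the Matrigel-only, Vehicle and Palo libraries, also held members. Cd44 stood at 337 CPM (284 to 398), 305 CPM (265 to 349.7) and 404 CPM (325 to 496) there, and all 3 intervals overlapped. Vcan stood at 153.1 CPM in Matrigel-only, 153.4 CPM in Vehicle and 48.9 CPM in Palo, on 64, 105 and 11 UMIs. These cells were shallow, with medians of 999.5, 1220 and 1278 UMIs.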
